A study of Mus musculus with 27 samples.

Results

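Chemokines, interleukins and their receptors were followed here as 80 genes of the 8251 genes that had a single symbol on the array. They were chosen by name: a platform symbol that begins with Ccl, Cxcl, Ccr, Cxcr or Il and goes on with a number. Each gene was represented by 1 probe set, that with the highest mean over all arrays, out of 92 probe sets in all, and 9 genes had more than 1. The 80 genes comprised 22 chemokine ligands, 13 chemokine receptors, 22 interleukins or soluble inhibitors, and 23 interleukin receptors.

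The 27 samples were islets, the hormone-secreting clusters of the pancreas, cut from the tissue with a laser, and their RNA was amplified in 2 rounds before labelling. Mice of every group, the untreated group included, carried MycER and BclXL transgenes that the insulin promoter drives, so both are made in beta cells. MycER is a fusion of Myc with an estrogen receptor domain that 4-hydroxytamoxifen (4OHT) switches on, and BclXL is a protein that protects cells from apoptosis. There were 9 groups of 3 arrays. An untreated group served as time 0, and 4 groups were killed at 2, 4, 8 or 24 h after a systemic injection of 4OHT. A further group was dosed daily with tamoxifen for 21 days, and 3 groups were taken 2, 4 or 6 days after such a course had ended. The labels name no vehicle injection and no mice without MycER, so a response to the drug or to the injection cannot be told apart from a response to Myc. They number the replicates but do not tie each number to a mouse of its own, and the p-values therefore rest on a spread between samples that may be technical. Strain, sex and age are not stated in the labels.

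Chemokines are small secreted proteins that draw leukocytes towards their source through G protein-coupled receptors. Interleukins act on receptors of leukocytes and of many tissue cells, most of them through Janus kinases (JAK) and STAT transcription factors, and those of the IL-1 family through MyD88 and NF-kB. Islets hold resident macrophages, a known source of IL-1 beta, and beta cells are known to carry the signalling IL-1 receptor.

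All values are on the log2 scale of the deposited table, so a difference of 1 is 2-fold, and levels of different genes are not compared because each probe set has its own affinity. The median of each array was 6.91 to 7.01, and within groups the arrays correlated at 0.957 to 0.992 over all probe sets. The means of 15 bacterial control probe sets, which should find no mouse RNA, ran from 3.58 to 7.14, and 43 of the 80 genes did not exceed the highest of these on any array. Of the islet markers, Ins2 lay between 13.35 and 13.91 over all arrays, Iapp between 11.70 and 12.86 and Chga between 12.38 and 13.30. Others did not stand out so: Pdx1 lay between 5.80 and 7.12, under the highest bacterial control mean, and Gcg between 5.46 and 10.68. RNA of other cells was also present and uneven: the mean over 15 acinar (exocrine) markers lay between 7.93 and 10.6 in untreated arrays, between 11.15 and 11.66 at 24 h, and between 7.08 and 7.60 at 21 days. In such bulk samples, fewer cells of a type and less RNA per cell cannot be told apart.

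Each comparison was tested with limma over all 12422 probe sets, and a gene is said to have risen, fallen or changed only at a Benjamini-Hochberg adjusted p under 0.05. Comparisons against the untreated group share those 3 arrays, and those against 21 days share the arrays of that group, so they are not independent of each other. By an F test over all 9 groups, 18 of the 80 genes (22.5%) changed, against 37.9% of all probe sets, so the share of the family was below that of the array. The shares were 5 of 22 chemokine ligands, 3 of 13 chemokine receptors, 6 of 22 interleukins or inhibitors and 4 of 23 interleukin receptors. The smallest adjusted p-values belonged to Il11 (0.000522), a cytokine of the IL-6 family, and Il15ra (0.000778), the chain that binds and presents IL-15. The others were Il13ra1, Il1r1, Cxcl14, Il12a, Il1b, Ccl6, Il6, Ccl5, Cxcr5, Ccl7, Ccr4, Ccr9, Il3, Il2rb, Ccl1 and Il18, with adjusted p between 0.0033 and 0.0454. The widest ranges of group means belonged to chemokines, Ccl2 (4.07), Ccl7 (3.39), Cxcl1 (3.31), Cxcl13 (2.73) and Cxcl2 (2.71). Of these, only Ccl7 passed the F test. The narrowest ranges were those of Il5ra (0.0733), Il1rap (0.107), Cxcr2 (0.147), Il1f5 (0.153) and Il17d (0.17), whose levels were at most 3.21, 3.37, 4.05, 3.72 and 4.51 on any array, far under the highest bacterial control mean.

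The largest differences in the family came 2 h after 4OHT, and the largest among them were those of the chemokine ligands Ccl2, Cxcl1, Ccl7, Cxcl2 and Cxcl13, followed by Il1b and Il6. For these genes, replicates 1 and 2 of that time stood above replicate 3 and above every untreated array. None of the 80 genes passed the adjusted threshold with limma, against 0.394% of all probe sets, and 18 were higher (22.5%, against 5.31%) and 2 lower (2.5%, against 6.41%; Ccr6 and Il18bp) at an unadjusted p under 0.05. Of the 80, 11 were more than 2-fold higher (13.8%), against 1.45% of all probe sets. The median difference of the 22 chemokine ligands was 0.39, with 18 above 0, against -0.06 over all genes. Arrays of the groups did not overlap for 10 genes that were higher (12.5%, against 5.31% of all probe sets) and for 6 that were lower (7.5%, against 10.5%).

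Ccl2, the main attractant of monocytes, measured 4.63, 5.26 and 4.82 on untreated arrays and 10.45, 11.27 and 5.19 at 2 h. Replicates 1 and 2 were far above every untreated array, and replicate 3 lay among them. The mean difference was 4.07 ± 1.18 (SE, n = 3 against 3), or 16.8-fold, with an adjusted p of 0.159 by limma. Ccl7, a second monocyte attractant, measured 3.91, 4.05 and 3.84 untreated and 8.32, 9.08 and 4.25 at 2 h. The groups did not overlap, although replicate 3 was above the untreated arrays by a small step, and the difference was 3.28 ± 0.88 (adjusted p = 0.129). Other attractants of monocytes and macrophages differed less. Ccl9 measured 6.60, 6.38 and 6.18 untreated and 10.06, 8.14 and 6.73 at 2 h, a difference of 1.92 ± 0.65 (adjusted p = 0.237). Ccl3 was at 6.34, 6.19 and 6.16 and then at 8.07, 6.81 and 5.96, and Ccl4 at 6.86, 6.65 and 6.65 and then at 7.85, 6.86 and 6.86. For both, replicate 1 stood highest and the groups touched or overlapped. Cxcl13, which draws B cells into follicles, measured 5.39, 4.91 and 5.20 untreated and 9.05, 7.12 and 5.96 at 2 h, without overlap and in the same order of arrays as Ccl9 (2.21 ± 0.87, adjusted p = 0.312).

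Ligands of the neutrophil receptor Cxcr2 had the same arrays at the top. Cxcl1 measured 6.36, 6.12 and 6.10 untreated and 11.11, 11.00 and 6.39 at 2 h, a difference of 3.31 ± 0.89 or 9.90-fold (adjusted p = 0.129 by limma). The groups did not overlap, but replicate 3 exceeded the highest untreated array by little. A second Cxcl1 probe set gave 5.91, 5.45 and 5.38 untreated and 10.01, 10.41 and 5.47 at 2 h, so its replicate 3 lay within the untreated arrays. Cxcl2 measured 5.21, 5.10 and 5.12 untreated and 10.16, 8.29 and 4.77 at 2 h. Here replicate 3 was below every untreated array, and the difference was 2.60 ± 0.89 (adjusted p = 0.239). Cxcl5 was at 4.47, 4.23 and 4.41 untreated and at 6.64, 6.70 and 4.43 at 2 h, with a difference of 1.55 ± 0.51 (adjusted p = 0.225). The receptor Cxcr2 itself stayed between 3.67 and 4.05 on all 27 arrays.

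**Figure D1:**
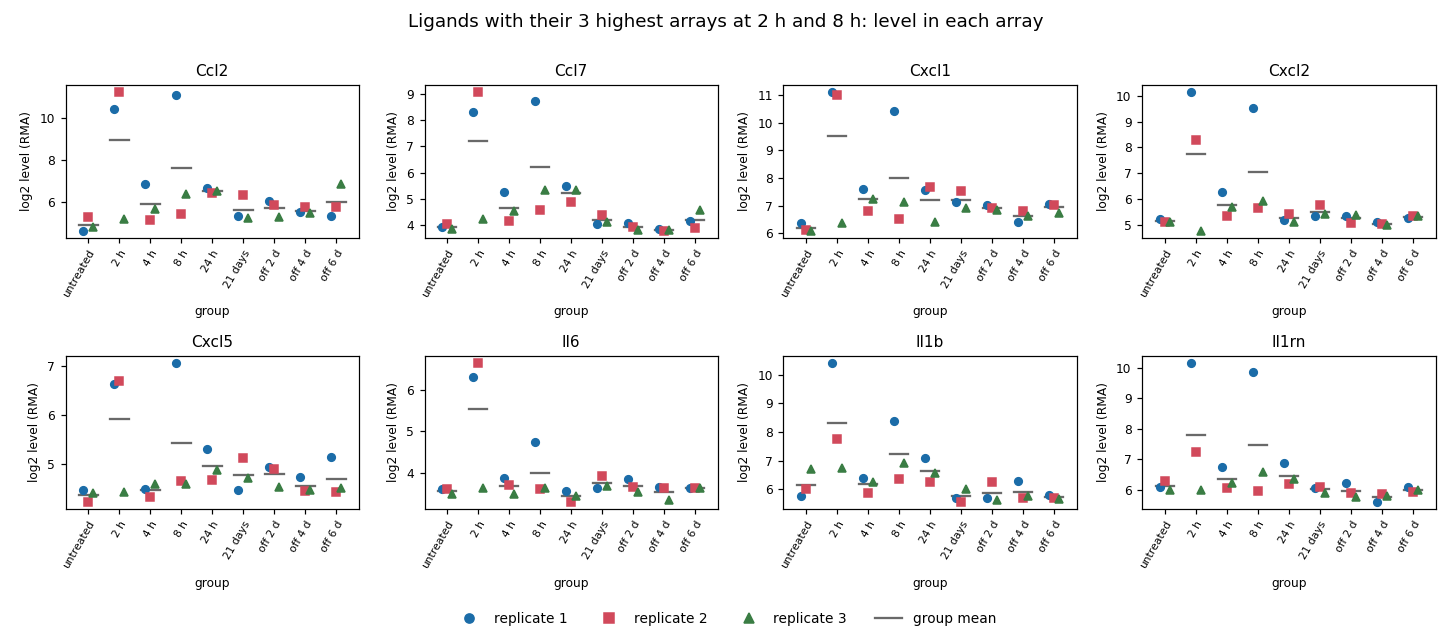
Level (log2) of Ccl2, Ccl7, Cxcl1, Cxcl2, Cxcl5, Il6, Il1b and Il1rn on each of the 27 arrays, by group; each marker shape is a replicate number and the short line is the group mean. Replicates 1 and 2 at 2 h and replicate 1 at 8 h stand above the other arrays of every panel, and for Ccl2 they measured 10.45, 11.27 and 11.13.

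Il6, the acute phase cytokine, measured 3.61, 3.60 and 3.48 untreated and 6.31, 6.65 and 3.64 at 2 h. The groups did not overlap, and the difference of 1.97 ± 0.46, or 3.92-fold, had the smallest adjusted p of the family at this time (0.0591 by limma). It passed the threshold with the replicate number as a block, and with leukocyte and acinar marker levels as covariates (2.13, adjusted p = 0.0425), an alternative added after the data were seen. Il1b, which encodes IL-1 beta, measured 5.76, 6.03 and 6.71 untreated and 10.40, 7.77 and 6.76 at 2 h, a difference of 2.14 ± 0.58 (adjusted p = 0.131). Il1rn, the secreted antagonist of the IL-1 receptor, was at 6.09, 6.27 and 5.97 and then at 10.15, 7.24 and 5.97. Its difference was 1.68 ± 0.77 (adjusted p = 0.40), and replicate 3 equalled the lowest untreated array. Il1a, the neighbouring IL-1 gene, differed by 0.16 only, from 5.13, 5.10 and 5.01 to 5.65, 4.98 and 5.08.

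Replicate 3 decided the calls at 2 h. Without it, 98 of 12422 probe sets passed (0.789%), 9 of the 80 genes among them. These were Ccl2 (5.96, adjusted p = 0.00433), Cxcl1 (4.86, 0.00159), Ccl7 (4.77, 0.0022), Cxcl2 (4.08, 0.00531), Il1b (2.92, 0.0095), Il6 (2.92, 5.31e-07), Ccl9 (2.71, 0.0493), Cxcl5 (2.30, 0.0128) and Ccl3 (1.21, 0.0215). Replicate 3 is the array that was low in these genes, so leaving it out raises the differences by construction. Without replicate 1 or replicate 2 at 2 h, or any 1 untreated array, none of the 80 passed. The Il6 difference ranged from 1.41 to 2.92 over these fits, and its adjusted p from 5.31e-07 to 0.325.

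Markers of leukocytes also differed between the 2 h arrays. Against the mean of all 27 arrays, 18 macrophage markers stood on average at 1.26, 0.15 and -0.04 in replicates 1, 2 and 3, and 14 pan-leukocyte markers at 0.93, 0.02 and 0.73. The mean macrophage marker level lay between 7.23 and 7.48 untreated and between 7.53 and 8.83 at 2 h, and that of 10 neutrophil markers between 6.54 and 7.10 and then between 7.10 and 7.62. Only 2 of these 10 were higher on average at 2 h and 8 were lower, with a median difference of -0.13, whereas 16 of the 18 macrophage markers were higher, with a median of 0.59. None of the macrophage, pan-leukocyte or neutrophil markers passed the threshold at 2 h. Replicate 2 held the highest Ccl2, Ccl7 and Il6 of its group and was near the overall mean in pan-leukocyte and macrophage markers. Replicate 3 was above that mean in pan-leukocyte markers and near the untreated arrays in these ligands. The untreated arrays reached at most -0.08 in macrophage and -0.01 in pan-leukocyte markers, so every 2 h array was above them in both lists. S100a8, one of the 2 higher neutrophil markers, measured 6.25, 5.49 and 8.78 untreated and 11.88, 9.41 and 9.40 at 2 h. Cd14 measured 8.88, 9.08 and 9.01 and then 12.61, 10.56 and 9.11, in the same order of arrays as Il1b. Acinar markers were higher too, with a median difference of 1.45 over 15 genes, none of them called. What the marker levels contribute to the ligand differences was not tested beyond the covariate fit.

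The same 3 arrays recurred. In 10 of the 80 genes (12.5%), the 3 highest arrays of the 27 were replicates 1 and 2 at 2 h and replicate 1 at 8 h. These were Ccl2, Ccl3, Ccl7, Ccl11, Cxcl1, Cxcl2, Cxcl5, Il1b, Il1rn and Il6. Of all 8251 genes, 78 (0.945%) had these 3 arrays at the top, a pattern that was noticed in the data and is given without a test. The 68 others included Socs3, the feedback inhibitor of IL-6 family signalling, the NF-kB inhibitor Nfkbia, the acute phase regulators Cebpb and Cebpd, the adhesion molecule Icam1, and Osmr, the oncostatin M receptor. Replicate 1 at 2 h held the highest level of 15 of the 80 genes (18.8%), 7 of them chemokine ligands, and of 2.58% of all genes. Replicate 2 at 2 h held the highest level of 6 (7.5%), against 1.72% of all genes.

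**Figure D2:**
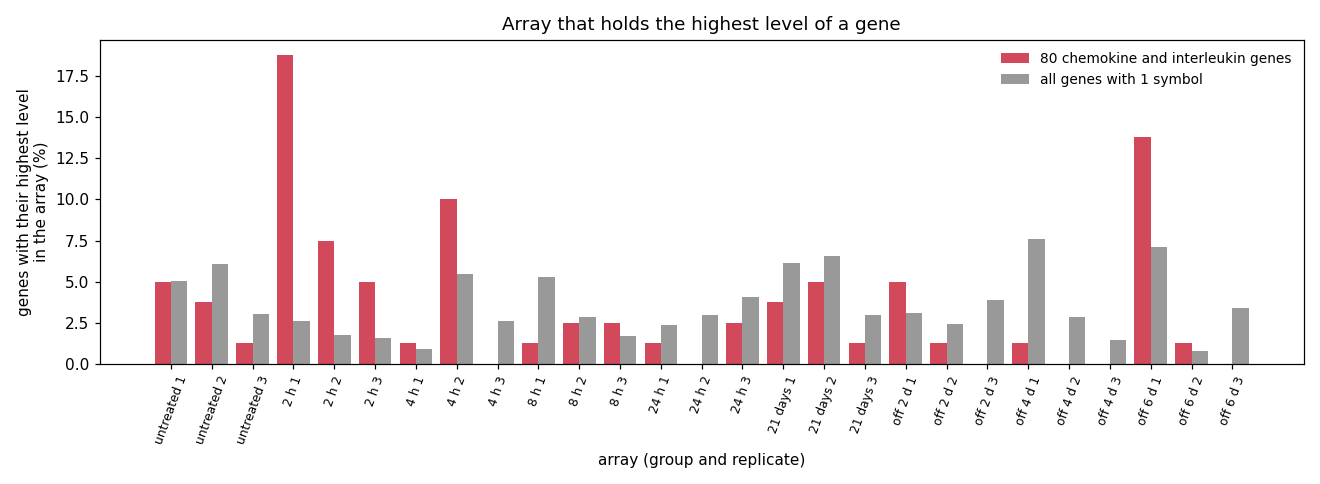
Share (percent) of the 80 genes and of all 8251 genes that have their highest level on each of the 27 arrays, as paired bars from 0. Replicate 1 at 2 h stands out for the 80 genes, with 18.8% against 2.58% of all genes, followed by replicate 1 at 6 days after dosing ended, with 13.8% against 7.08%.

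Their neighbours in the genome did not all share this. In the GRCm38.p6 gene table, Ccl2, Ccl7, Ccl11, Ccl12, Ccl8 and Ccl1 are consecutive coding genes, and at 2 h they differed from untreated by 4.07, 3.28, 0.42, 0.22, 0.06 and -0.15. Ccl11, an attractant of eosinophils, measured 6.02, 6.07 and 5.88 untreated and 6.37, 7.07 and 5.79 at 2 h. Ccl12 and Ccl8, which also act on monocytes, and Ccl1, a ligand of Ccr8, had 2 h arrays within or near the untreated range. Cxcl1 and Cxcl2 are adjacent coding genes, and Cxcl5 lies nearby with 4 coding genes between. Il1a and Il1b are adjacent, with differences of 0.16 and 2.14.

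RefSeq promoter windows, from 250 bases before to 50 after the start on GRCm38.p6, were at hand for 63 of the 80 genes and for 6 of the 10 that shared the top 3 arrays (Ccl3, Cxcl1, Cxcl2, Il1b, Il1rn and Il6). They were searched for 5 motifs on both strands. The NF-kB motif, GGG, any 2 bases and TTTCC, was found in 7 of the 63 (11.1%; Ccl9, Ccr3, Cxcl1, Cxcl2, Il4ra, Il6 and Il9), against 1.63% of all 27025 windows. The AP-1 motif TGANTCA was in 14 (22.2%, against 7.92%), the STAT motif TTCNNNGAA in 8 (12.7%, against 8.42%), the interferon response element, GAAA, any 2 bases and GAAA, in 4 (6.35%, against 3.49%), and the E-box CACGTG that Myc and Max bind in 2 (3.17%, against 7.24%). Of the 6 with a window, Cxcl1, Cxcl2 and Il6 held the NF-kB motif, Il1rn and Il6 the AP-1 motif, and none the E-box, STAT or interferon letters. A match describes the letters only, and the absence of one says nothing of sites elsewhere. The windows of Ccl3, Il1b and Il1rn held no NF-kB match, and only the 3 windows that did are shown. All are on the + strand, and capitals mark the motif on either strand: Cxcl1 at chr5:90890995-90891294, Cxcl2 at chr5:90903649-90903948 and Il6 at chr5:30012864-30013163.
Cxcl1: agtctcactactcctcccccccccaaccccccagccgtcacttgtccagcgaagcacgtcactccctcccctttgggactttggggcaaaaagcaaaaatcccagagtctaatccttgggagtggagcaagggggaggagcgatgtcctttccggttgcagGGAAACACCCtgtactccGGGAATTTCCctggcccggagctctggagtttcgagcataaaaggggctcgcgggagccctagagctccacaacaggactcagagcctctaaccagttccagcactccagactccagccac
Cxcl2: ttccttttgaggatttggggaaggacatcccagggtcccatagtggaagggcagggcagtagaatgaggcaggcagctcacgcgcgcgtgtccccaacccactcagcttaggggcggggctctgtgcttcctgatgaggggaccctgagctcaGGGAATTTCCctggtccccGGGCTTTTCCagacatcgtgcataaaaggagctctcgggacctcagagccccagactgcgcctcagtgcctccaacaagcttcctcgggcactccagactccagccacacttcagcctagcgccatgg
Il6: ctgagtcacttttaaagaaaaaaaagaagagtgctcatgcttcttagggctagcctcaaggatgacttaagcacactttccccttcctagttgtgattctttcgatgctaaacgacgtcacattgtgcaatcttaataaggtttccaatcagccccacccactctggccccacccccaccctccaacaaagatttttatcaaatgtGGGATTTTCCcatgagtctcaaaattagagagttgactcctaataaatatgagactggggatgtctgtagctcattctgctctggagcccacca
The matches end 80 and 62 bases before the start in Cxcl1, 88 and 69 before it in Cxcl2, and 35 before it in Il6. Cxcl1 and Cxcl2 thus hold a pair of matches each, close to the start and to each other.

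Receptors differed less than ligands at 2 h. Ccr1, a receptor of Ccl3, Ccl7 and Ccl9, measured 4.49, 4.44 and 4.41 untreated and 7.41, 4.80 and 4.37 at 2 h, so its difference of 1.08 ± 0.43 (adjusted p = 0.327 by limma) came from replicate 1. Il1r2, the decoy receptor that binds IL-1 without signalling, likewise measured 8.81, 8.53 and 8.86 untreated and 10.89, 8.74 and 8.47 at 2 h. Other receptors were higher on all 3 arrays. Il15ra measured 9.09, 8.85 and 8.62 untreated and 9.27, 9.56 and 9.66 at 2 h (0.64 ± 0.17, adjusted p = 0.119). Il6st, the gp130 chain through which the IL-6 family signals, was at 8.19, 8.14 and 8.22 and then at 8.70, 9.16 and 8.61 (0.64 ± 0.26, adjusted p = 0.323). Il10rb, a chain shared by receptors of IL-10 and its relatives, was at 8.65, 8.68 and 8.91 and then at 9.25, 9.15 and 9.04. In these 3 receptors replicate 3 was as high as, or close to, the others. The largest differences downwards without overlap were Il18bp, the soluble IL-18 inhibitor (-0.29), Cxcl14, a chemokine of epithelia (-0.22), and Il13 (-0.19).

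At 4 h most levels lay near those of the untreated islets. None of the 80 genes passed with limma (0.797% of all probe sets did), and 1 was higher and 2 lower at an unadjusted p under 0.05, against 3.86% and 4.48% of all probe sets. Cxcl1 was the only one more than 2-fold higher, at 7.61, 6.82 and 7.25, all above the untreated arrays, with a difference of 1.03. Ccl7 (5.25, 4.17 and 4.54) and Cxcl2 (6.26, 5.32 and 5.70) were also above every untreated array, by 0.72 and 0.62 on average. No overlap was seen for 5 higher and 2 lower genes, 6.25% and 2.5% of the 80, against 4.48% and 5.53% of all probe sets. The lower ones were Il18, an IL-1 family cytokine, at 4.63, 4.88 and 4.84 against 5.35, 4.99 and 4.94 (-0.31, adjusted p = 0.411 by limma), and Il10ra, the ligand-binding chain for IL-10 (-0.17). Il1r1 stood lower by more, at 8.76, 9.03 and 9.56 against 9.43, 10.11 and 10.44 untreated, but with overlap and without a call.

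At 8 h, 9 genes were more than 2-fold higher (11.2%, against 1.3% of all probe sets), in most of them through 1 array. None passed with limma, against 1.7% of all probe sets, and 7 were higher and 3 lower at an unadjusted p under 0.05, against 6.15% and 9.78%. Ccl2 measured 11.13, 5.43 and 6.38, a difference of 2.74, and Ccl7 8.73, 4.58 and 5.35, a difference of 2.29 (adjusted p = 0.210). Cxcl2 (9.52, 5.66 and 5.91), Cxcl1 (10.41, 6.51 and 7.12) and Cxcl5 (7.06, 4.65 and 4.59) were likewise highest in replicate 1. For Ccl2, Ccl7, Cxcl1, Cxcl2 and Cxcl5, replicate 1 was far above, yet replicates 2 and 3 also exceeded every untreated array. Il1b at 8.38, 6.36 and 6.92 and Il1rn at 9.84, 5.94 and 6.58 overlapped the untreated arrays, and Il6 was at 4.75, 3.61 and 3.63. Ccl9 measured 8.84, 6.71 and 7.94, all above untreated (1.44), and Cxcl13 6.61, 4.86 and 7.74 (1.24), with replicate 3 highest. Replicate 1 at 8 h had a macrophage marker mean of 0.15 and a pan-leukocyte mean of 0.22 above all arrays. Replicate 3 had means of 0.23 and 1.12 and lower levels of these ligands apart from Cxcl13. In neutrophil markers replicates 1 and 3 stood at 0.55 and 0.63, against at most 0.23 untreated, although 8 of the 10 were lower on average at 8 h. Cd14, a macrophage marker, was at 11.36 and 9.51 on these 2 arrays, against at most 9.08 untreated. Of these lists too, none was called at 8 h. There was no overlap for 8 higher and 8 lower genes, 10% each, against 5.14% and 9.57% of all probe sets. The largest downward was Il1r1, the signalling IL-1 receptor, at 9.22, 9.11 and 8.84 against 9.43, 10.11 and 10.44 (-0.94 ± 0.27, adjusted p = 0.0753). It passed the threshold after quantile normalization and with the replicate number as a block. Ccl8 (-0.31) and Ccr9, the receptor for gut-homing lymphocytes (-0.29), followed.

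At 24 h, 4 of the 80 genes, all chemokine ligands, were more than 2-fold higher (5%, against 1.27% of all probe sets). None of these 4 overlapped the untreated arrays, and the arrays of the 3 monocyte and macrophage attractants among them lay close together. Ccl9 measured 8.68, 7.66 and 8.06, a difference of 1.75 ± 0.65 (adjusted p = 0.252 by limma). Ccl2 measured 6.66, 6.43 and 6.54 (1.64 ± 1.18, adjusted p = 0.640), and Ccl7 5.50, 4.87 and 5.34 (1.30 ± 0.88, adjusted p = 0.605). Cxcl1 was at 7.56, 7.66 and 6.41 (1.02), its replicate 3 just above the untreated arrays. The SE comes from the spread pooled over all 9 groups. In it the 2 h and 8 h arrays lie farthest apart for Ccl2, Ccl7 and Cxcl1, and the 2 h and 2 days off arrays for Ccl9. With the 6 arrays of this comparison fitted alone, Ccl2, Ccl7 and Ccl9 passed, and without the 3 arrays highest in Ccl2, an alternative added after the data were seen, Ccl7 passed. None of the 80 passed in the main test, against 1.38% of all probe sets, and 3 were higher and 3 lower at an unadjusted p under 0.05, against 6.21% and 5.63%. Arrays did not overlap for 7 higher genes (8.75%, against 6.84% of all probe sets), all of them chemokine ligands, and for 10 lower ones (12.5%, against 8.71%). The largest of the latter were Cxcr5, the B cell receptor for Cxcl13 (-0.41), Il27ra, the IL-27 receptor (-0.35), and Il18 (-0.20). All 3 arrays at 24 h also carried the most acinar RNA, at 2.58, 2.18 and 2.07 above the mean of all arrays, and 17 of 18 macrophage markers were higher than untreated, with a median difference of 0.16 and none called. With pan-leukocyte and acinar levels as covariates in limma, Ccl2, Ccl7 and Ccl9 were not called and Il16 was (-1.20, adjusted p = 0.0401). The acinar means of the untreated and 24 h arrays did not overlap, so that fit separates them poorly from the comparison.

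**Figure D3:**
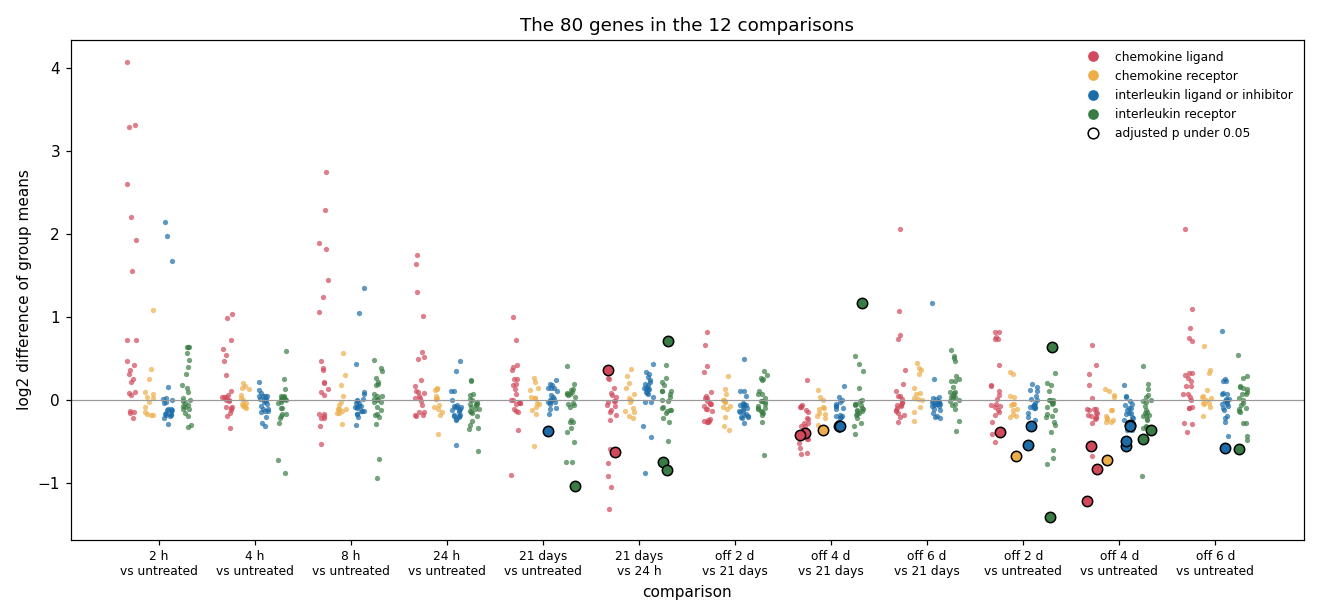
Differences (log2) of the 80 genes in each of the 12 comparisons, coloured by class, with large outlined points for those at an adjusted p under 0.05. No gene passed at 2, 4, 8 or 24 h although differences reached 4.07, whereas called differences of smaller size, such as -0.38 for Il11 at 21 days, appear in the later comparisons.

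After 21 days of dosing, 2 genes had fallen against untreated islets. None rose and 2 fell of the 80 (2.5%), against 7.27% and 7.37% of all probe sets. Il1r1 measured 9.43, 10.11 and 10.44 untreated and 8.95, 8.74 and 9.17 at 21 days. The groups did not overlap, and it fell by 1.04 ± 0.27 on the log2 scale (adjusted p = 0.0113 by limma). The call was lost without untreated replicate 3 or 21 day replicate 2, with adjusted p up to 0.0624. Il11 went from 6.31, 6.48 and 6.08 to 6.02, 5.81 and 5.91, again without overlap, and fell by 0.38 ± 0.11 (adjusted p = 0.0314). It was lost without untreated replicate 1 or 2 or 21 day replicate 2 or 3, with adjusted p up to 0.152. Arrays did not overlap for 6 higher genes (7.5%, against 16.5%) and 10 lower ones (12.5%, against 13.6%). The largest differences upwards were Cxcl1 (7.15, 7.53 and 6.91, a difference of 1.0), Il15ra (0.40, adjusted p = 0.115) and Cxcl2 (0.36). Downwards, Ccl5, an attractant of T cells and monocytes, was at 6.86, 7.01 and 6.67 against 8.06, 7.27 and 7.93 (-0.91, adjusted p = 0.154), and Il1r2 at 8.03, 7.58 and 8.33 (-0.75, adjusted p = 0.213). Both IL-1 receptors thus had lower means than in untreated islets, with only Il1r1 called.

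Between 24 h and 21 days, 2 genes rose and 3 fell, 2.5% and 3.75% of the 80, against 11.6% and 9.23% of all probe sets. Il15ra measured 8.90, 8.47 and 8.28 at 24 h and 9.16, 9.31 and 9.30 at 21 days, and it rose by 0.71 ± 0.17 (adjusted p = 0.00564 by limma). It remained called whichever array was left out. Ccl1 rose by 0.36 ± 0.10, from 7.56, 7.43 and 7.42 to 7.83, 7.92 and 7.75 (adjusted p = 0.0129). Its call was lost without 24 h replicate 3 or 21 day replicate 2, with adjusted p up to 0.0648. Il1r1 fell by 0.85 ± 0.27, from 9.83, 9.64 and 9.93 (adjusted p = 0.0276), and was lost in 4 of 6 such fits, without 24 h replicate 1 or 3 or 21 day replicate 1 or 2 (up to 0.111). Il13ra1, a receptor chain for IL-13 and IL-4, fell by 0.74 ± 0.22, from 5.95, 6.36 and 6.30 to 5.40, 5.50 and 5.48 (adjusted p = 0.0230). It was lost without 24 h replicate 2 or 3 or 21 day replicate 1 or 2 (up to 0.0850). Cxcl10, an interferon-induced ligand of Cxcr3, fell by 0.63 ± 0.20, from 4.42, 4.30 and 4.89 to 3.92, 4.13 and 3.68 (adjusted p = 0.0321). It was lost without 24 h replicate 3 or 21 day replicate 1 or 3 (up to 0.180). In none of the 5 did the groups overlap. None of these 5 calls held with leukocyte and acinar marker levels as covariates in limma, where the adjusted p lay between 0.106 and 0.420. The acinar mean lay between 11.15 and 11.66 at 24 h and between 7.08 and 7.60 at 21 days. Because the groups are wholly apart in this covariate, the fit separates it poorly from the comparison, and the loss of the calls does not decide their source.

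Without overlap, 15 genes were higher at 21 days than at 24 h (18.8%, against 24.1% of all probe sets) and 12 were lower (15%, against 16%). Il1a (0.44) and Il27ra (0.42) were the largest of the former after Il15ra, and Ccl9 (-1.32, adjusted p = 0.157), Ccl7 (-1.05) and Ccl2 (-0.92) the largest of the latter. Of the interleukins and inhibitors, 17 of 22 were above 0 with a median of 0.13 and none called, where 4773 of all 8251 genes were above 0 with a median of 0.06.

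**Figure D4:**
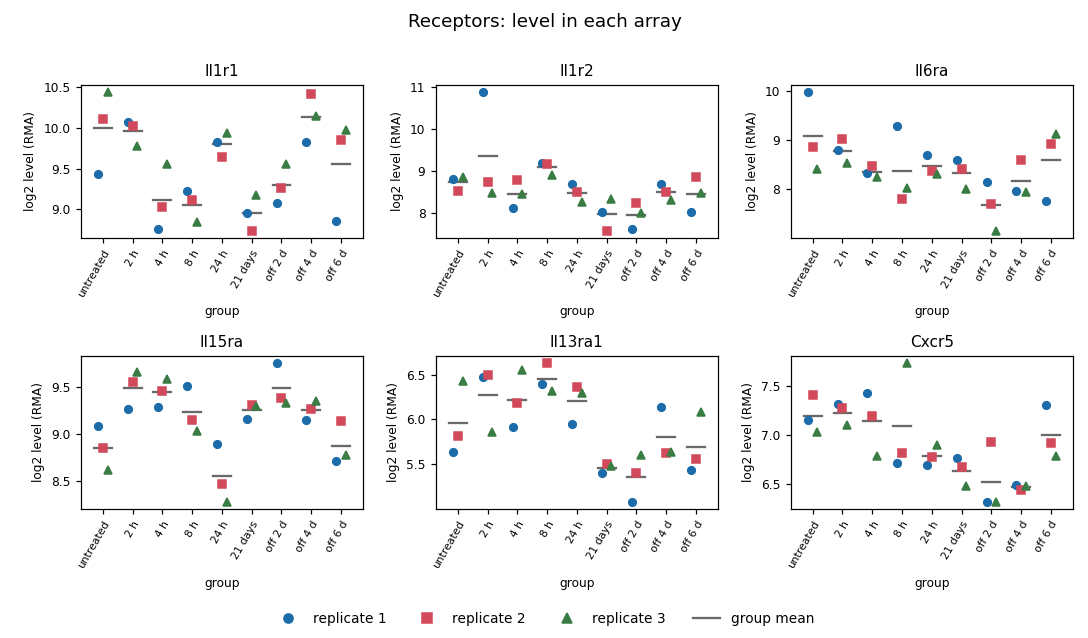
Level (log2) of the receptors Il1r1, Il1r2, Il6ra, Il15ra, Il13ra1 and Cxcr5 on each of the 27 arrays, by group; marker shapes are replicate numbers and lines are group means. Il1r1 is lowest at 21 days, 8 h and 4 h and stands at 9.83, 10.41 and 10.14 at 4 days after dosing ended. The Cxcr5 arrays of that last group lie between 6.44 and 6.49.

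When dosing had been stopped for 2 days, none of the 80 genes differed from 21 days at the threshold with limma (0.153% of all probe sets did), and 0 were higher and 8 lower at an unadjusted p under 0.05, against 6.66% and 9.46%. Cxcl12, the ligand that holds Cxcr4-bearing cells in tissues, was at 7.48, 8.42 and 7.50 against 7.07, 7.30 and 7.05, all above the 21 day arrays (0.66, adjusted p = 0.409). Ccr1 (0.28) and Il15ra (0.24) followed. Downwards without overlap, Ccr4, a receptor of type 2 helper and regulatory T cells, was at 7.28, 7.27 and 7.19 against 7.80, 7.51 and 7.50 (-0.36, adjusted p = 0.103), and Ccr9 (-0.32) and Il2rb (-0.26) came next. Groups did not overlap for 3 higher genes (3.75%, against 7.25%) and 11 lower ones (13.8%, against 15%).

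Against untreated islets, 1 gene had risen and 5 had fallen 2 days after dosing ended, 1.25% and 6.25% of the 80, against 9.72% and 10.9% of all probe sets. Il15ra rose by 0.64 ± 0.17, to 9.76, 9.39 and 9.33 (adjusted p = 0.00954 by limma), and only leaving out replicate 1 of the later group ended the call (0.0594). Il6ra, the ligand-binding chain of the IL-6 receptor, fell by 1.41 ± 0.39. Its arrays were 9.98, 8.86 and 8.41 untreated and 8.15, 7.71 and 7.16 after 2 days, with no overlap but a wide spread within both groups (adjusted p = 0.0135). Without untreated replicate 1 or without replicate 3 of the later group the call was lost, the difference ranging from -1.75 to -0.96 and the adjusted p reaching 0.111. Il11 fell by 0.55 ± 0.11, to 5.79, 5.76 and 5.68 (adjusted p = 0.00192 by limma), and kept its call in every such fit. All its arrays lay under the highest bacterial control mean. Cxcr5 fell by 0.67 ± 0.22, from 7.15, 7.40 and 7.03 to 6.32, 6.93 and 6.32 (adjusted p = 0.0305).

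Cxcl14 fell by 0.38 ± 0.11, from 5.33, 5.34 and 5.11 to 4.80, 4.84 and 4.99 (adjusted p = 0.0194 by limma). Il12a, the p35 chain of IL-12, fell by 0.31 ± 0.10, from 6.34, 6.29 and 6.07 to 5.87, 5.97 and 5.92 (adjusted p = 0.0281). Neither gene had overlapping arrays. Cxcr5, Cxcl14 and Il12a each lost the call without untreated replicate 1 or 2 and without replicate 1 of the later group. Replicate 3 of that group did so too for Cxcr5 and Il12a, and replicate 2 for Cxcl14, with adjusted p up to 0.130, 0.0778 and 0.127. In this comparison 7 higher genes had no overlap (8.75%, against 14.5%) as had 13 lower ones (16.2%, against 18.1%). The largest uncalled were Ccl2 (0.82), Cxcl1 (0.74) and Cxcl12 (0.74) upwards and Il1r2 (-0.78) downwards.

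At 4 days after dosing ended, most of the family lay lower than at 21 days. Of the 80 genes, 68 were below their 21 day mean, with a median difference of -0.165 against -0.06 over all genes, and 21 of the 22 chemokine ligands were among them. Arrays of the groups did not overlap for 31 lower genes (38.8%), against 25% of all probe sets, and for 3 higher ones (3.75%, against 13.3%). By limma 5 fell and 1 rose, 6.25% and 1.25% of the 80, against 2.42% and 3.58% of all probe sets. The calls were small for the ligands. Ccl1 fell by 0.39 ± 0.10, from 7.83, 7.92 and 7.75 to 7.25, 7.47 and 7.60 (adjusted p = 0.0282). Cxcl14 fell by 0.42 ± 0.11, from 5.16, 5.06 and 5.17 to 4.61, 4.72 and 4.79 (adjusted p = 0.0360). Ccr4 was the only chemokine receptor called, and it fell by 0.37 ± 0.09, to 7.22, 7.18 and 7.31 (adjusted p = 0.0278).

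Il10, an anti-inflammatory cytokine, fell by 0.31 ± 0.09, from 5.89, 5.85 and 5.78 to 5.39, 5.62 and 5.58 (adjusted p = 0.0449 by limma). The call was lost with the replicate number as a block. Il3, a growth factor of blood cell precursors and mast cells, fell by 0.31 ± 0.09, from 6.28, 6.22 and 6.20 to 5.78, 5.99 and 6.00 (adjusted p = 0.0418). In all 5 genes that fell, the groups did not overlap and the later levels were within the range of the bacterial controls or close above it. Il1r1 was the one gene that rose, by 1.17 ± 0.27, from 8.95, 8.74 and 9.17 to 9.83, 10.41 and 10.14 (adjusted p = 0.0185). Those levels lie in the range of its untreated arrays, 9.43 to 10.44.

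None of these 6 calls held in all 6 fits that left out 1 array. Without 21 day replicate 3, Il1r1, Il10 and Il3 stayed called, and without any other single array of the 2 groups they were lost, with adjusted p up to 0.0972, 0.214 and 0.203. Ccl1 and Ccr4 were lost without replicate 1 or 2 of either group (up to 0.172 and 0.134), and Cxcl14 in every such fit (0.0550 to 0.167). Replicate 1 of the 4 day group held the lowest level of 17 of the 80 genes (21.2%), against 10.2% of all genes. The largest uncalled differences without overlap were Il13ra1 (0.34) and Cxcl12 (0.24) upwards, and Cxcl9, an interferon-induced T cell attractant (-0.65), Ccl9 (-0.64) and Cxcl1 (-0.58) downwards.

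Against untreated islets, 10 of the 80 genes had fallen at 4 days (12.5%) and none had risen, against 11.8% and 11.9% of all probe sets, so the share that fell was near the background. The largest differences upwards without overlap, Ccl2 (0.67), Cxcl1 (0.43) and Il15ra (0.41), were not called. Arrays did not overlap for 26 lower genes (32.5%, against 23.1%) and 4 higher ones (5%, against 16.8%), and 62 of the 80 were below the untreated mean. Among the chemokines, Ccl5 fell by 1.22 ± 0.42, from 8.06, 7.27 and 7.93 to 6.69, 6.09 and 6.82 (adjusted p = 0.0379 by limma). Ccl6, a myeloid chemokine, fell by 0.83 ± 0.25, from 7.71, 7.93 and 7.28 to 6.76, 6.80 and 6.87 (adjusted p = 0.0171). Cxcl14 fell by 0.55 ± 0.11 (adjusted p = 0.00149). Cxcr5 fell by 0.72 ± 0.22, to 6.49, 6.44 and 6.48 (adjusted p = 0.0182), 3 arrays that lay closer together than the untreated ones.

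Of the interleukins, Il11 fell by 0.56 ± 0.11, to 5.78, 5.64 and 5.78 (adjusted p = 0.00156 by limma), and Il12a by 0.49 ± 0.10, to 5.61, 5.80 and 5.82 (adjusted p = 0.00138). Il3 (-0.31 ± 0.09, adjusted p = 0.0115) and Il10 (-0.30 ± 0.09, adjusted p = 0.0186) also fell. Among the receptors, Il3ra, the IL-3 receptor alpha chain, fell by 0.47 ± 0.16, from 7.85, 7.51 and 7.36 to 6.92, 7.25 and 7.13 (adjusted p = 0.0332). Il2rb, a chain shared by the IL-2 and IL-15 receptors, fell by 0.36 ± 0.12, from 6.48, 6.42 and 6.13 to 5.89, 6.02 and 6.05 (adjusted p = 0.0283). In each of the 10 genes every 4 day array was below every untreated array. The calls of Il11, Il12a and Cxcl14 held in all 6 fits that left out 1 array, and those of the other 7 did not. On no array did these 3 exceed the highest bacterial control mean, 7.14, their highest levels being 6.48, 6.37 and 5.45. Untreated replicate 1 or 2, or both, and replicate 1 or 2 of the later group were among the arrays whose loss ended them, with adjusted p up to 0.144 for Ccl5, 0.0902 for Ccl6, 0.0846 for Cxcr5, 0.117 for Il10, 0.137 for Il2rb, 0.0817 for Il3 and 0.193 for Il3ra. Untreated replicate 3 did so for Ccl5 too, and replicate 3 of the later group for Il3ra.

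Leukocyte markers were low on the same arrays. The pan-leukocyte mean lay between 7.35 and 7.72 untreated and between 7.18 and 7.31 at 4 days, and the B cell mean between 6.78 and 8.07 and then between 6.68 and 6.72. Of the T and NK cell markers 3 of 15 fell and all 15 were below the untreated mean. Of the pan-leukocyte markers 1 of 14 fell, of the neutrophil markers 1 of 10, and of the B cell markers 0 of 9, all 9 of them below that mean. Of all probe sets 11.8% fell in this comparison, and 4743 of all 8251 genes were below the untreated mean. The pan-leukocyte, neutrophil and B cell calls were thus not above the share of the array. With the pan-leukocyte and acinar levels as covariates 8 of the 80 genes were called in place of 10, and beyond that fit the part of these cells in the lower levels was not tested.

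The pattern on the arrays 6 days after dosing ended was different again, with ligands and receptors of lymphocytes high on 1 or 2 of the 3. None of the 80 genes passed against 21 days with limma (0.274% of all probe sets did), and 4 were higher and 2 lower at an unadjusted p under 0.05, against 5.57% and 8.24%. The B cell attractant Cxcl13 measured 4.90, 5.68 and 4.92 at 21 days and 8.85, 7.69 and 5.14 at 6 days off, a difference of 2.06 ± 0.87 (adjusted p = 0.286) that overlapped through replicate 3. Il16, an attractant of CD4+ cells, was at 6.65, 6.80 and 6.51 and then at 9.02, 7.54 and 6.89 (1.16 ± 0.51, adjusted p = 0.321). Ccl5 was at 6.86, 7.01 and 6.67 and then at 9.13, 7.31 and 7.32 (1.07 ± 0.42, adjusted p = 0.251). Il16 and Ccl5 did not overlap, and replicate 1 was highest in all 3 genes. Il7r, the IL-7 receptor of lymphocytes, was at 4.99, 4.00 and 4.07 (0.51). Downwards, the largest without overlap were Il15ra (-0.38), Ccr9 (-0.25) and Il18 (-0.22), and the counts were 5 higher (6.25%, against 6.45%) and 3 lower (3.75%, against 11%).

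B cell markers were high on some of the same arrays. The mean of 9 B cell markers stood at 2.01, 0.69 and -0.12 above the mean of all arrays in replicates 1, 2 and 3 at 6 days off. Among the other arrays with a high B cell mean, replicate 3 at 8 h (1.76) and replicate 2 at 2 days off (1.28) were high in the same ligands. Cxcl13 measured 7.74 and 7.21 there, Il16 8.00 and 8.66, and Cxcl12 8.19 and 8.42, each the highest array of its group. In Cxcl12 and Il16 these arrays and replicate 1 at 6 days off (9.09 and 9.02) were the 3 highest of the 27, as in 91 of the 8251 genes (1.1%). Cxcr4, the receptor of Cxcl12, was highest at 5.37 and 5.10 on 2 of these 3 arrays, replicate 1 at 6 and replicate 2 at 2 days off. On the third, replicate 3 at 8 h, Cxcr4 was at 4.19, under its median of 4.23 over all arrays. At 4 days off, where the B cell mean was -0.69, -0.73 and -0.71, Cxcl13 lay at 4.50, 4.65 and 4.80, below every untreated array. The highest Cxcl13 of all, 9.05 in replicate 1 at 2 h, came with a B cell mean of 0.83, and 5.96 in replicate 3 of that time with one of 0.88. The part of B cells in these levels was not tested.

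**Figure D5:**
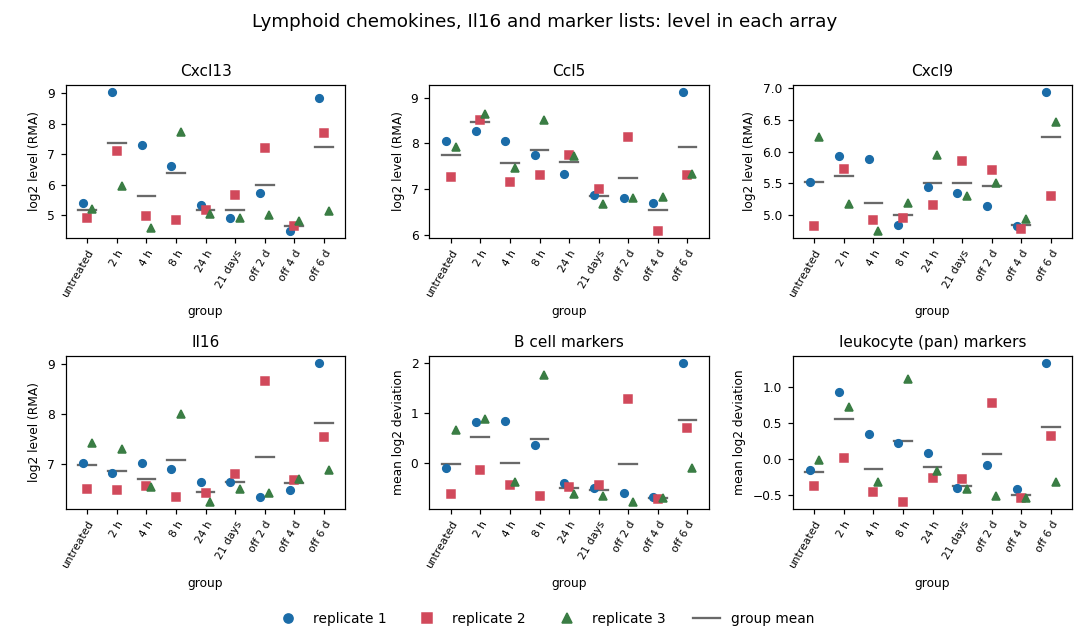
Level (log2) of Cxcl13, Ccl5, Cxcl9 and Il16 on each of the 27 arrays by group, beside the mean log2 deviation of the B cell and pan-leukocyte markers from the mean of all arrays; marker shapes are replicate numbers. Arrays with high B cell markers, the 6 days off group's replicate 1 (2.01), replicate 3 at 8 h (1.76) and, of the 2 days off group, replicate 2 (1.28), also show the high Il16 levels of 9.02, 8.00 and 8.66.

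Against untreated islets, 2 of the 80 genes had fallen at 6 days off (2.5%) and none had risen, against 6.93% and 4.79% of all probe sets. Il11 fell by 0.58 ± 0.11, to 5.47, 5.76 and 5.89 (adjusted p = 0.00256 by limma), and held in all 6 fits that left out 1 array, though not with the 6 arrays of the comparison fitted alone (0.123). It was thus below the untreated arrays at 21 days and in all 3 groups after dosing, at every array, though always under the highest bacterial control mean. Il3ra fell by 0.59 ± 0.16, to 6.99, 7.04 and 6.92 (adjusted p = 0.0178), and was lost without untreated replicate 1 or replicate 3 of the later group (up to 0.112). Arrays did not overlap for 8 higher genes (10%, against 11.5%) and 3 lower ones (3.75%, against 13.3%). Ccl2 (1.09), Cxcl1 (0.74) and Ccr2, the receptor of Ccl2 (0.36), were the largest higher, none called, and Il13 (-0.20) the largest uncalled lower. Ccl2, at 5.34, 5.78 and 6.86, and Cxcl1, at 7.05, 7.02 and 6.74, lay above every untreated array.

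By their chosen probe sets, Cxcl1 and Ccl2 stayed above untreated after the acute phase without being called. Every Cxcl1 array at 21 days and at 2, 4 and 6 days off lay above the highest untreated array, 6.36, with differences from 0.43 at 4 days off to 1.0 at 21 days. The second Cxcl1 probe set did not share this. It overlapped its untreated arrays (5.91, 5.45 and 5.38) in each of these groups. It was at 5.95, 6.88 and 5.86 at 21 days, and at 5.58, 5.79 and 5.54 at 4 days off. Ccl2 exceeded the highest untreated array, 5.26, on every array of the 2, 4 and 6 day groups, by 0.82, 0.67 and 1.09 on average, while 1 of the 21 day arrays (5.25) did not.

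Other receptors of the panel were not called. Ccr2 lay between 5.55 and 6.92 on all arrays, Ccr7, the receptor of lymph node homing, between 4.04 and 4.67, Cxcr3 between 6.53 and 7.04, and Il17ra, the IL-17 receptor, between 8.51 and 9.38. None of these 4 passed in any of the 12 comparisons. Il4ra, the IL-4 receptor, was at 8.41, 7.81 and 7.90 untreated and 8.99, 8.50 and 8.34 at 2 h (0.57), with overlap. Il18 and Ccr9 passed the F test alone, and between 24 h and 21 days they differed by 0.34 (adjusted p = 0.0599 by limma) and 0.29 (adjusted p = 0.0539).

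The rest of the cytokine network was read from 3 lists of other genes. Of 20 measured genes of JAK and STAT signalling, Socs3 rose at 2 h by 2.02 ± 0.34 (adjusted p = 0.00803 by limma) and at 8 h by 1.87 ± 0.34 (0.00683). It measured 7.18, 5.91 and 7.14 untreated, 8.94, 9.23 and 8.12 at 2 h, and 9.30, 7.79 and 8.74 at 8 h, so here replicate 3 at 2 h was also above every untreated array. At 21 days Socs3 was at 8.04, 7.76 and 7.84 and had risen by 1.14 (adjusted p = 0.0306). Pias3, an inhibitor of Stat3, fell at 2 h by 0.68 ± 0.12 (adjusted p = 0.00975) and by 0.63, 0.53 and 0.39 against untreated at 2, 4 and 6 days off. Stat3 itself was 0.19 higher at 2 h and was not called. Of the 20, 1 rose and 1 fell at 2 h, against 0.346% and 0.0483% of all probe sets, and 1 rose at 8 h, against 1.07%. At 21 days against untreated 1 rose and 1 fell, against 7.27% and 7.37%. At 2 and at 4 days off against untreated 2 rose and 1 fell, where 9.72% to 11.9% of all probe sets passed in either direction taken alone. Later calls were Jak1 (-0.44 at 21 days against untreated), Pias2 (0.54 at 21 days against 24 h, and 0.64 and 0.60 at 2 and 4 days off against untreated), Jak2 (0.69 at 2 days off) and Cish (0.48 at 4 days off).

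Of 25 measured genes of IL-1, Toll and NF-kB signalling, none passed at 2, 4, 8 or 24 h. Nfkbia, an early target of NF-kB, measured 7.49, 7.82 and 7.94 untreated and 8.90, 8.84 and 7.55 at 2 h (0.68, adjusted p = 0.369 by limma), with replicate 3 again among the untreated arrays, and the adaptor Myd88 differed by 0.18. At 21 days against untreated, Tab2, an adaptor of the TAK1 kinase, rose by 0.73, and the NF-kB inhibitors Nfkbib and Tnip1 fell by 0.50 and 0.49. Thus 1 of the 25 rose and 2 fell, where 7.27% and 7.37% of all probe sets did. Against untreated, Tab2 rose by 0.96, 1.22 and 0.68 at 2, 4 and 6 days off, and Nfkbib fell by 0.50, 0.38 and 0.31. At 4 days off Ikbkg (-0.53), Traf2 (-0.37), Nfkbie (-0.25) and Tnip1 (-0.59) fell and Tollip (0.44) rose, so that 5 of the 25 fell and 2 rose against untreated, where 11.8% and 11.9% of all probe sets did. Nfkbie also fell there against 21 days (-0.29), and Tnip1 at 2 days off against untreated (-0.54). Between 24 h and 21 days Tab2 rose by 0.61 and Nfkbib fell by 0.54, where 11.6% and 9.23% of all probe sets rose and fell.

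Of 39 other measured chemokine and cytokine genes, none passed at 2, 4, 8 or 24 h, and Tnf was 0.16 higher at 2 h (adjusted p = 0.607 by limma). Between 24 h and 21 days 6 rose and none fell, where 11.6% and 9.23% of all probe sets did, and among them were Flt3l (0.96, adjusted p = 0.00426), a growth factor of dendritic cells, Csf2ra (0.84), the GM-CSF receptor alpha chain, and Lta (0.60), lymphotoxin alpha. The other 3 were Pf4 (0.37), Xcr1 (0.33) and Csf2rb (0.31). Lta also rose at 21 days against untreated, by 0.52. Lifr, the receptor of leukaemia inhibitory factor, which signals together with Il6st, rose by 1.05 at 4 days off against 21 days (adjusted p = 0.0247) and by 0.81 against untreated. Tnfrsf11a fell by 0.26 at 2 days off against untreated.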

How the data were processed

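The 27 samples were hybridized 1 per Affymetrix array, and the whole series was deposited as 1 table of log2 expression values, summarised per probe set with RMA per the submitters' processing notes (version not given in the sources used here). This step equalises the arrays' distributions, and no genome build is named for these files. Replicate arrays limit the precision, since a table of arrays holds no counts. Samples were grouped by their titles into 9 groups of 3. Of 12488 probe sets, 66 controls were left out, and 12422 were tested in R 4.3.3 with limma 3.58.1 (group means, empirical Bayes, two-sided, 18 residual degrees of freedom, Benjamini-Hochberg adjustment over all of them). Probe sets were named through the platform annotation. The code was tested on simulated data first. The members, lists, motifs and tests were chosen with earlier results of these data known, so no pattern here is independent support for those. Genes were named where called; the 3 largest differences each way without overlap in each comparison; the 5 widest and 5 narrowest ranges of group means; and a panel of cytokine genes. Alternatives covered normalization, low levels, variance, blocks, probe sets, arrays and covariates.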

Additional observations from a re-analysis of the deposited data

How the results depend on the processing

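The alternatives were run on 51 single-gene differences, of which the filter left 19, and on the numbers of genes called. Among these 51 the direction turned only for Cxcl2 (-0.37) and Il1rn (-0.14) at 2 h without the 3 arrays highest in Ccl2, which leaves 1 array at 2 h. That setting, the one without the leukocyte-rich arrays (5 arrays over 0.5 above the mean in pan-leukocyte markers) and the one with marker covariates were chosen after seeing the data. At 2 h (0 called) the replicate block gave 1 and the covariates 2. The set without leukocyte-rich arrays drops replicates 1 and 3 of that time and so leaves 1 array there, and its count is not given. At 8 h (0) quantile normalization and the block gave 1 each. At 24 h (0) the 6 arrays alone gave 3, the set without the Ccl2-high arrays 1 and the covariates 1. At 21 days against untreated (2), a filter that drops the dimmest 40% of probe sets gave 1, the 6 arrays alone 5, the set without leukocyte-rich arrays 5 and that without Ccl2-high arrays 4. Against 24 h (5) the same settings gave 3, 12, 9 and 8, and the covariates 2. At 4 days off against 21 days (6), quantile normalization, the filter and both reduced sets gave 3 each. Against untreated, 2 days off (6) gave 3 with the filter and 3 with the 6 arrays alone, 4 days off (10) gave 5 with the filter, and 6 days off (2) gave 1 with the filter, 0 with the 6 arrays alone and 1 without leukocyte-rich arrays. The F test (18) gave 7 with the filter, which tests fewer genes, and 10 with covariates. Leaving out 1 array gave 0 to 9 at 2 h, 0 to 0 at 4 h, 0 to 1 at 8 h, 0 to 0 at 24 h, 0 to 2 at 21 days, 1 to 4 against 24 h, then 0 to 0, 0 to 6 and 0 to 0 for 2, 4 and 6 days off against 21 days, 3 to 10, 4 to 13 and 1 to 4 against untreated, and 12 to 27 for the F test. Of 31 called differences, 6 held in every such fit. The replicate numbers did not pair the samples: in 0 of 12 comparisons did every same-numbered pair correlate over 0.1, and the block otherwise gave 2, 5 and 5 calls for 21 days against untreated, against 24 h, and 4 days off against 21 days, 7, 10 and 2 for 2, 4 and 6 days off against untreated, and 16 for the F test. Many genes lie inside the range of the bacterial controls, where a difference may be understated.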

Other observations

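Probe sets that the platform assigns to several related genes were left out of the 80 genes and are given here as values. The probe set of the Ccl21 genes, which encode a chemokine of lymphoid tissue and lymphatic vessels, measured 7.21, 6.70 and 6.34 untreated and 8.43, 6.39 and 8.56 at 2 h. It was at 6.24, 8.79 and 6.22 at 2 days off and at 9.49, 9.06 and 6.38 at 6 days off. The probe set of the Ccl19 genes, whose product shares the receptor Ccr7, had its highest values, 8.79 and 8.41, in replicate 1 of the 6 days off group and replicate 2 of the 2 days off group. Il4i1, an amino acid oxidase named for its induction by IL-4, stood at 8.12, 7.05 and 5.87 at 6 days off and at 7.44 in replicate 3 at 8 h. Replicate 1 at 6 days off, replicate 2 at 2 days off and replicate 3 at 8 h were also the arrays with the highest B cell markers. On replicate 3 at 8 h, however, the Ccl21 probe set was at 6.50, within its untreated range. The Ccl19 probe set was at 7.86 there, against 7.85, 7.76 and 7.60 untreated.

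Further probe sets of genes with more than 1 did not always give the same calls as the one chosen. A second probe set of Il12rb1, a chain shared by the IL-12 and IL-23 receptors, fell by 0.46 at 21 days against untreated (adjusted p = 0.00552 by limma), by 0.41 at 2 days off and by 0.43 at 4 days off. Second probe sets of Il4ra (0.57) and Il6st (0.31) rose between 24 h and 21 days, and that of Il6st fell by 0.40 at 4 days off against 21 days. A second Il1r2 probe set repeated the single high array at 2 h, with 7.21, 7.79 and 7.53 untreated and 10.34, 7.73 and 7.47 at 2 h. A second Cxcl12 probe set was high on these arrays too, at 8.39 in replicate 1 of the 6 days off group and 8.25 in replicate 2 of the 2 days off group.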
